A study of Dimocarpus longan with 9 samples.

Results

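The comparison flower VS young fruit sets the open longan flower beside the small fruit that forms from it, the step known as fruit set. It rests on 2 of the 9 libraries made from Dimocarpus longan, an evergreen fruit tree of the soapberry family. Both libraries came from the cultivar “SJM” (sijimi), which flowers and fruits through the year, and no treatment, genotype other than the cultivar, or developmental day is given for either. Each tissue is 1 library without replicates, so every count and difference below describes these 2 libraries, carries no error and was not tested. The other 7 libraries (flower bud, pericarp, pulp, seed, leaf, stem and root) are used only to show where else a gene was measured.

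At fruit set the petals and stamens wither, while the ovary wall and the fertilised ovules start to divide and grow. In model plants such as Arabidopsis and tomato, auxin and gibberellin made after fertilisation release this growth. Transcription factors, the proteins that bind DNA and set which genes are read, fall into families named for their DNA-binding domain, and several families carry known roles in floral organ identity, organ growth, seed formation or stress. In RNA from whole organs, fewer cells of a type and less RNA per cell cannot be told apart.

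Levels are FPKM, fragments counted per length of exon and per total of mapped fragments, so they are corrected for gene length and library size. Of 30014 genes in the table, 22407 were above 0 FPKM in flower, 22737 in young fruit and 20461 in both. At 1 FPKM or more the numbers were 17410 in flower and 18779 in young fruit, and the median gene stood at 2.30 FPKM in flower against 4.15 FPKM in young fruit. The depth in reads is unknown from FPKM without gene lengths, so a value of 0 is written as listed at 0. Among the 9 libraries, 3311 identifiers had the same value in every tissue as some other identifier and formed 1017 sets, which is stated beside any such gene named here.

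Marker genes were read first as a check of the labels. The floral regulator genes of the types LFY and NOZZLE were low in both libraries. The LFY gene Dlo_005438.1, whose Arabidopsis relative starts floral meristems, had 0.1 FPKM in flower, 0.23 FPKM in young fruit and its highest level, 1.09 FPKM, in flower bud. The NOZZLE gene Dlo_010016.1, whose Arabidopsis relative starts pollen and ovule formation, had 0.15 FPKM in flower, 0.17 FPKM in young fruit and 2.07 FPKM in flower bud. Of the genes listed as markers of green tissue, the photosystem II gene PsbP (Dlo_000983.1) had 13.8 FPKM in flower and 60.5 FPKM in young fruit, whereas the light-harvesting gene Dlo_012937.1 had 3.92 and 2.39 FPKM. Neither set leaf apart from the other tissues, since PsbP had 115.0 FPKM in leaf and 123.1 FPKM in seed, and Dlo_012937.1 had 1.5 FPKM in leaf and 16.7 FPKM in seed. Of the markers of dividing tissue, the replication licensing gene MCM2 (Dlo_022738.1) had 7.73 FPKM in flower and 11.3 FPKM in young fruit, a difference of 0.49 as deposited and 0.02 after the scaling described in the next paragraph. Of the other markers of division, 3 were kinesins, which move along spindle microtubules. In flower and young fruit, Dlo_023091.2 had 2.89 and 9.1 FPKM, Dlo_012525.1 4.41 and 14.4 FPKM, and Dlo_007073.4 0.69 and 1.53 FPKM. After scaling their differences were 0.91, 1.02 and 0.29. Of the 4 E2F-DP genes, also listed as markers of division, 0 were 2-fold apart as deposited and 2 were higher in flower after scaling. They are described with the small types. All of these green and dividing markers were above 0 in both libraries, so none of them marks 1 of the 2 tissues alone. Other genes of division that were lower in young fruit are given with their list.

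More genes stood at a higher level in young fruit than in flower. A difference is given as log2((young fruit + 1)/(flower + 1)) of the FPKM values, positive where young fruit was higher, and a gene counts as higher in 1 tissue at 2-fold or more on that scale. Of all genes, 7036 (23.4%) were higher in young fruit and 3119 (10.4%) were higher in flower, so 69.3% of the 10155 genes set apart were higher in young fruit. The bulk of the expressed genes was shifted in the same direction. Over the 15916 genes above 1 FPKM in both libraries, the median ratio of young fruit to flower was 1.44, a shift of 0.53 on the log2 scale. After division of the young fruit values by that ratio, called median-ratio scaling below, 4188 genes (14.0%) were higher in young fruit and 4236 (14.1%) in flower, a young fruit share of 49.7%. This scaling sets the median ratio of those genes to 1, so a near even split largely follows from it. Rescaling to the same total over all genes kept the young fruit share at 68.1%. The excess therefore depended on the scaling chosen, and each family below is given both as deposited and after median-ratio scaling. Of the 20250 genes with at least 1 FPKM in either library, the shares as deposited were 34.7% for young fruit and 15.4% for flower, and after scaling they were 20.7% and 20.9%.

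The largest differences ran the other way. At 16-fold or more, 495 genes were higher in flower and 207 in young fruit, and after scaling the numbers were 568 and 106. Genes at 5 FPKM or more in flower and listed at 0 in young fruit numbered 300, and 169 genes had the reverse pattern. At the lower limit of 1 FPKM the 2 tissues were nearly even, with 701 genes in flower listed at 0 in young fruit and 724 the other way round. Flower thus held more of the very large differences and young fruit more of the moderate ones as deposited.

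**Figure D1:**
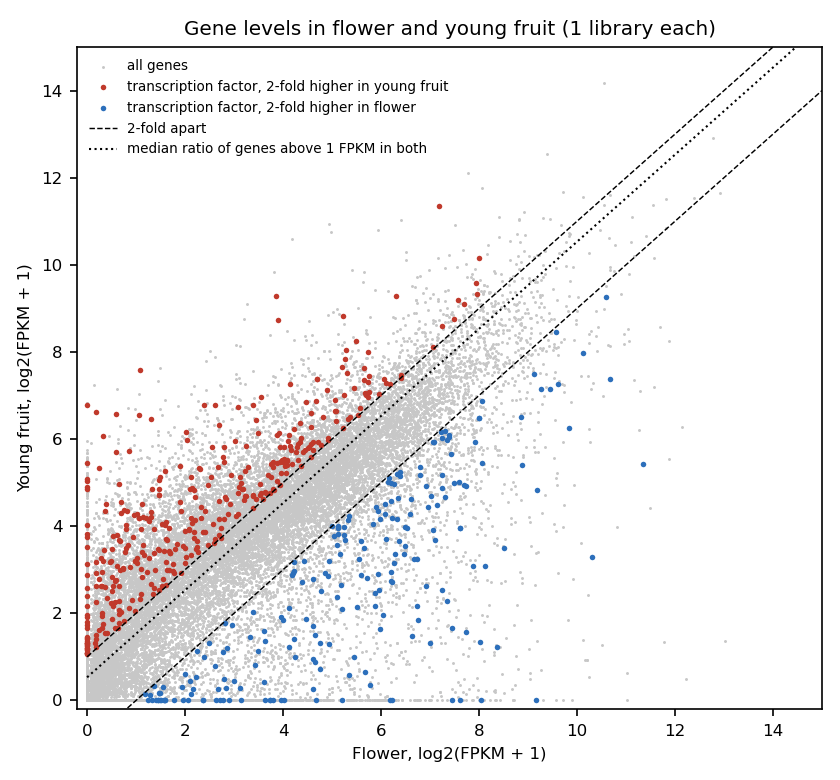
Level of each gene in flower (x axis) and young fruit (y axis), both as log2(FPKM + 1), with 1 library each. Grey points are all 30014 genes, red and blue points are transcription factor genes at least 2-fold higher in young fruit (372) or flower (215), dashed lines mark 2-fold and the dotted line marks the median ratio of 1.44. Most grey points lie along the dotted line, above equality, and the points along the lower edge are genes listed at 0 in young fruit.

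The tissue with the highest level among all 9 was then listed for the genes set apart. Of the 7036 genes higher in young fruit, 2642 (37.5%) had their highest level in young fruit, 1137 in root, 948 in leaf, 662 in seed, 629 in pericarp, 559 in pulp, 383 in stem and 76 in flower bud. Of the 3119 genes higher in flower, 1152 (36.9%) were highest in flower and 732 (23.5%) in flower bud, with 301 in root, 225 in seed, 200 in pericarp, 194 in pulp, 161 in stem and 154 in leaf. Over all 28598 genes above 0 in any tissue, 4226 (14.8%) were highest in young fruit, 1930 (6.75%) in flower and 2874 in flower bud. The choice of genes by this difference favours a peak in the chosen tissue and bars one in the other, so these shares are a description.

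The study's list of transcription factors holds 1611 genes of 64 types, and 1529 of them were in the table. Of these, 372 were higher in young fruit and 215 in flower, a young fruit share of 63.4% of the 587 set apart, with a median difference of 0.07 beside 0.13 over all genes. After scaling, 246 were higher in young fruit and 286 in flower, so the excess turned to flower, while all genes were near even. The shares of 24.3% and 14.1% as deposited lie beside the 23.4% and 10.4% of all genes. Of the 372, 122 were highest in young fruit, 77 in root, 48 in leaf and 43 in pericarp, and of the 215, 74 were highest in flower and 45 in flower bud. At 5 FPKM or more, 19 transcription factors were found in flower without any value above 0 in young fruit, and 13 the other way round.

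**Figure D2:**
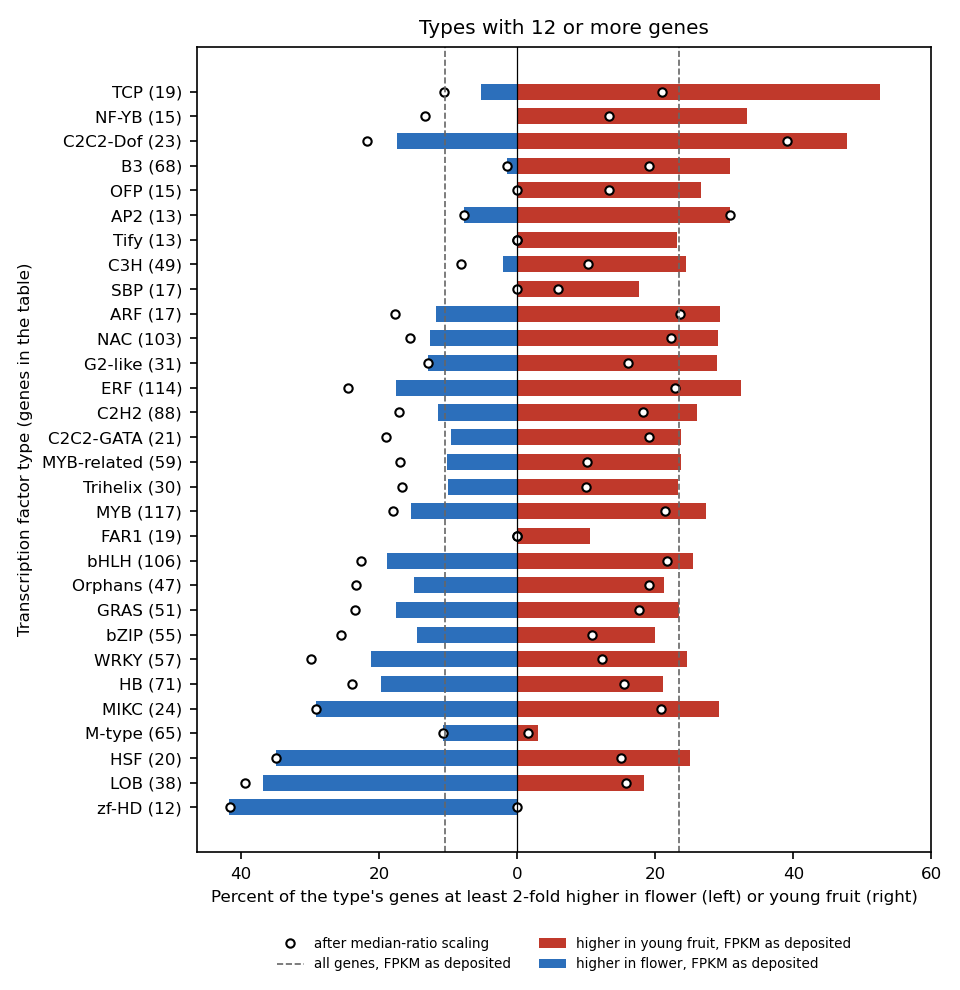
Percent of the genes of each transcription factor type at least 2-fold higher in flower (blue, left) or young fruit (red, right), for the types with 12 or more genes in the table, ordered by the difference of the shares. Dashed lines are the shares over all genes as deposited (10.4% and 23.4%) and open circles are the shares after median-ratio scaling. TCP and C2C2-Dof reach furthest to the right, and zf-HD, LOB and HSF furthest to the left.

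MADS-box genes of the MIKC type in Arabidopsis specify sepals, petals, stamens and carpels and later act in ovules and fruits. Of 24 genes, 7 were higher in young fruit and 7 in flower (29.2% each way). The shares of all genes were 23.4% and 10.4%, so the counts were equal but the flower share was above that of all genes. After scaling the counts were 5 and 7, where all genes stood at 14.0% and 14.1%. All 24 are described here, the gene furthest apart each way by the rule for named genes and the others after their values were seen. The 7 on the flower side had 24.4 FPKM or less in flower, and 5 of them were listed at 0 in young fruit. Dlo_004585.1 had 97.2 FPKM in flower bud, 24.4 FPKM in flower, 0.21 FPKM in seed and was listed at 0 in the other 6 tissues. Dlo_026514.1 had 23.4 FPKM in flower bud, 12.9 FPKM in flower and was listed at 0 in young fruit. Of the others, Dlo_003028.1 had 6.49 FPKM, Dlo_008860.1 4.12 FPKM and Dlo_025737.1 1.66 FPKM in flower, each listed at 0 in young fruit. These 5 genes were thus measured in bud and flower and not in the young fruit library. The remaining 2 were Dlo_028609.1, with 7.74 FPKM in flower and 0.21 FPKM in young fruit, and Dlo_026071.1, with 3.71 and 1.19 FPKM.

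On the young fruit side the MIKC genes reached higher levels. Dlo_026285.1 had 1.07 FPKM in flower and 92.5 FPKM in young fruit, a difference of 5.50, and was higher still in pulp (472.8 FPKM) and seed (762.8 FPKM) while leaf, stem and root were listed at 0. Its levels in flower bud (1.38 FPKM) and pericarp (3.62 FPKM) were low, so it was high in young fruit, pulp and seed but not in every fruit tissue. Dlo_030807.1, annotated as a MADS1 gene, had 4.22 FPKM in flower, 108.7 FPKM in young fruit and 40.7 FPKM in pericarp, a difference of 4.39. Dlo_003537.1 had 78.5 FPKM in flower, 626.1 FPKM in young fruit and 1241 FPKM in pericarp, a difference of 2.98. These latter 2 genes were higher in young fruit than in pulp, at 0.28 and 3.38 FPKM. The other 4 were lower or closer, with Dlo_034152.2 at 0.74 and 14.3 FPKM, Dlo_016963.1 at 2.05 and 11.98 FPKM, Dlo_005595.1 at 4.94 and 15.5 FPKM and Dlo_031156.1 at 61.4 and 130.2 FPKM in flower and young fruit. The last 2 fell short of 2-fold after scaling, at 0.98 and 0.55.

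The most abundant MIKC genes of the flower stayed within 2-fold. Dlo_008014.1 had 616.2 FPKM in flower and 444.4 FPKM in young fruit, a difference of -0.47 as deposited and just short of 2-fold after scaling. Dlo_031930.1 had 335.7 and 250.4 FPKM, and Dlo_021466.1 had 240.0 and 199.2 FPKM. All 3 were at 1.00 FPKM or less in leaf, stem and root, so they were measured mainly in the floral and fruit libraries. Of the last 7 genes, Dlo_031929.1 had 22.3 and 24.7 FPKM in flower and young fruit, with flower lower as deposited and higher after scaling (-0.37). The other 6 were at 1.2 FPKM or less in both tissues, namely Dlo_017296.1, Dlo_010768.1, Dlo_002268.1, Dlo_009139.1, Dlo_010081.1 and Dlo_000528.1.

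**Figure D3:**
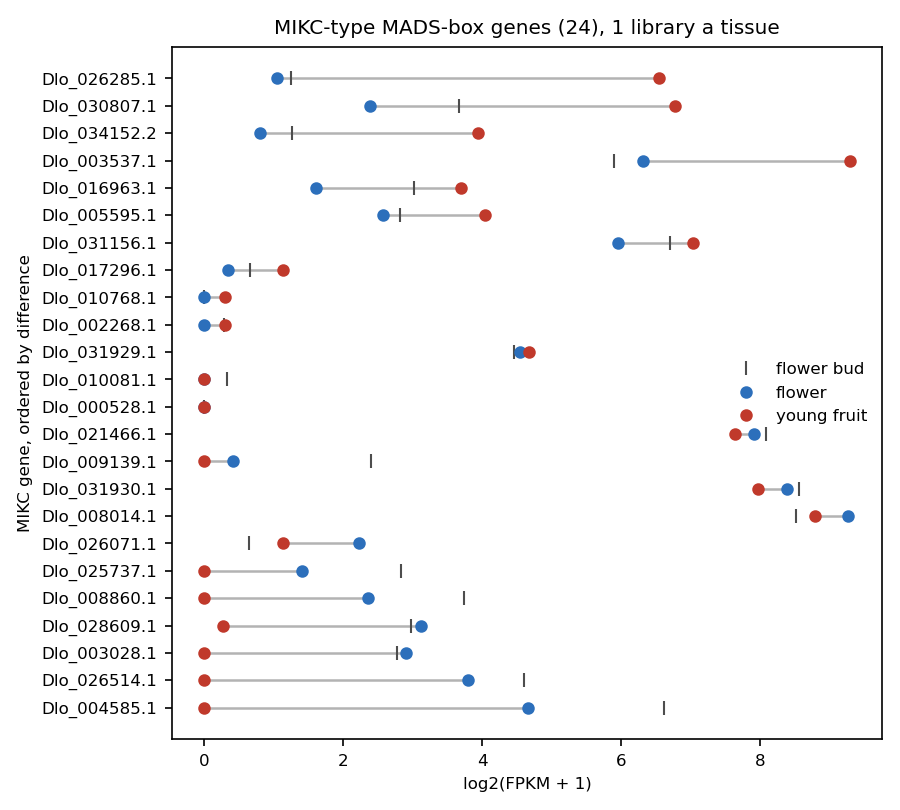
Levels of the 24 MIKC genes as log2(FPKM + 1) in flower (blue), young fruit (red) and flower bud (bar), 1 library a tissue, ordered by the difference between young fruit and flower. Dlo_026285.1 at the top had 1.07 FPKM in flower and 92.5 FPKM in young fruit, while Dlo_004585.1 at the bottom had 24.4 FPKM in flower and was listed at 0 in young fruit. Where both circles fall at 0 the red one covers the blue one.

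The other MADS-box genes, called M-type, were mostly near 0, with 15 of 65 at 1 FPKM or more in either tissue. Of the 65, 7 (10.8%) were higher in flower and 2 (3.08%) in young fruit, and 7 and 1 after scaling. Beside 10.4% and 23.4% of all genes as deposited, only the young fruit share lay far from that of all genes. Dlo_017293.1 had 71.5 FPKM in flower, 40.0 FPKM in flower bud and was listed at 0 in young fruit. The largest difference the other way was Dlo_006998.1, with 0.41 FPKM in flower, 8.14 FPKM in young fruit and 22.5 FPKM in stem. The next 2 flower genes of this type, chosen after their values were seen, were Dlo_026068.1 with 36.0 FPKM in flower and 20.4 FPKM in flower bud and 0 in the other 7 tissues, and Dlo_003535.1 with 135.7 FPKM in flower and 11.8 FPKM in young fruit. All 3 flower-side genes named here were also present in flower bud.

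The YABBY genes, which in Arabidopsis give leaves and floral organs their lower side and act in carpels and ovules, held 2 of the 12 transcription factors furthest on the flower side. Dlo_026074.1 had 195.7 FPKM in flower, 12.1 FPKM in flower bud and was listed at 0 in young fruit and the other 6 tissues. Dlo_019359.1 had 174.2 FPKM in flower, was listed at 0 in young fruit, pericarp and pulp, and had its highest level, 322.4 FPKM, in seed. The first was therefore measured in floral libraries alone and the second also in seed and vegetative tissues. Dlo_010752.1 was higher in flower too, with 82.7 FPKM against 37.2 FPKM, and reached 273.8 FPKM in pulp. Dlo_027352.1 went the other way, with 52.0 FPKM in flower and 156.8 FPKM in young fruit, its highest level of the 9 tissues and a difference of 1.57. The last 2 of the 6 genes stayed within 2-fold, Dlo_023494.1 with 11.3 and 8.62 FPKM and Dlo_018599.1 with 0.22 and 0.49 FPKM.

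More LOB and zf-HD genes were higher in flower than in young fruit. LOB proteins are named for lateral organ boundaries, the creases between an organ and the stem tip. Of 38 genes, 14 (36.8%) were higher in flower and 7 (18.4%) in young fruit, or 15 and 6 after scaling. All genes stood at 10.4% and 23.4% as deposited. Dlo_032831.1 had 260.8 FPKM in flower, 288.0 FPKM in flower bud and was listed at 0 in young fruit. The LOB gene furthest the other way was Dlo_005903.1, with 0.28 FPKM in flower, 19.2 FPKM in young fruit, 94.4 to 100.2 FPKM in pulp, pericarp and seed, and 87.3 FPKM in root. It was thus low in flower and bud and present in root as well as in each fruit library. A pair of LOB identifiers, Dlo_033087.1 and Dlo_000883.1, shared all 9 values (195.2 FPKM in flower, 14.5 FPKM in young fruit, 1058 FPKM in pericarp) and count as 2 in these numbers. The zf-HD genes encode zinc finger homeodomain proteins that act in flower development in Arabidopsis. Of 12 zf-HD genes, 5 (41.7%) were higher in flower and 0 in young fruit under either scaling. The furthest apart was Dlo_026217.1, with 119.8 FPKM in flower, 5.22 FPKM in young fruit and 2.97 FPKM in flower bud.

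The TCP, SBP and OFP types of growth regulators had more genes higher in young fruit than in flower as deposited, at shares of 52.6%, 17.6% and 26.7% beside 23.4% of all genes. Only the share of TCP genes lay far from that of all genes. TCP proteins, which set where and how long cells divide in leaves and petals, had 10 of 19 genes higher in young fruit and 1 in flower, and 4 and 2 after scaling. The largest was Dlo_026340.1, with 1.89 FPKM in flower, 15.6 FPKM in young fruit and 40.3 FPKM in root, and the gene on the flower side was Dlo_007333.1, with 17.6 and 8.01 FPKM. The excess of TCP genes in young fruit was thus smaller once the shift between the libraries was removed. In the SBP type, which governs the change from juvenile to adult growth, 3 of 17 genes were higher in young fruit and 0 in flower, and 1 and 0 after scaling. Dlo_022368.1 was the largest, with 5.13 FPKM in flower, 108.8 FPKM in young fruit and 126.2 FPKM in leaf, a difference of 4.16. In the OFP type, repressors that shape fruits in tomato, 4 of 15 were higher in young fruit and 0 in flower (2 and 0 after scaling), and Dlo_000075.1 had 0.75 FPKM in flower and 19.4 FPKM in young fruit, its highest level.

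The small types tied to cell proliferation differed in direction. GRF proteins are growth-regulating factors of young organs. Beside 23.4% and 10.4% of all genes, 3 of 9 (33.3%) were higher in young fruit and 0 in flower, or 3 and 1 after scaling. The 3 were Dlo_009201.2 with 0.24 and 6.71 FPKM, Dlo_000440.1 with 0.83 and 7.29 FPKM and Dlo_004446.1 with 2.98 and 13.7 FPKM in flower and young fruit. Their highest levels lay in seed or pulp, so young fruit was intermediate. The gene on the flower side after scaling was Dlo_005986.1, with 1.5 FPKM in flower, 0.35 FPKM in young fruit and 73.4 FPKM in seed. The other 5 GRF genes (Dlo_005572.1, Dlo_016151.1, Dlo_027533.2, Dlo_028754.1 and Dlo_033862.1) were at 1.39 FPKM or less in both tissues. E2F-DP proteins switch on DNA replication genes, and none of the 4 was 2-fold apart as deposited, while Dlo_009599.1 (4.4 and 2.17 FPKM) and Dlo_012375.1 (2.85 and 1.33 FPKM) were higher in flower after scaling. The most abundant, Dlo_032462.1, had 19.1 FPKM in flower, 13.8 FPKM in young fruit and 85.3 FPKM in pulp, and Dlo_031583.1 had 1.85 and 3.16 FPKM.

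Homeodomain (HB) and AP2 genes each had 1 member among the 12 transcription factors furthest on the flower side. HB genes are regulators of organ polarity, meristems and the epidermis. Of 71, 15 (21.1%) were higher in young fruit and 14 (19.7%) in flower, beside 23.4% and 10.4% of all genes. Only the flower share was thus above that of all genes. After scaling the HB counts were 11 and 17, so their order turned. Dlo_018410.1 had 2587 FPKM in flower, 3592 FPKM in flower bud and 41.9 FPKM in young fruit, a difference of -5.91. The largest the other way was Dlo_018995.1, with 1.76 FPKM in flower, 28.1 FPKM in young fruit and 81.1 FPKM in root. A gene annotated as REVOLUTA, which in Arabidopsis marks the upper side of organs and was chosen here after its values were seen, was Dlo_032917.2 with 3.34 and 33.7 FPKM. Among 13 AP2 genes, 4 (30.8% as deposited) were higher in young fruit and 1 (7.69%) in flower under either scaling. That 1 gene, Dlo_015581.1, had 328.1 FPKM in flower, 334.0 FPKM in flower bud and 1.35 FPKM in young fruit, a difference of -7.13. Dlo_032272.1 was the largest the other way, with 0.6 FPKM in flower, 11.7 FPKM in young fruit and 58.5 FPKM in root.

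The types with known roles in seeds and embryos had more genes higher in young fruit than in flower when pooled, and B3 genes made up most of the count. Over the B3, NF-YA, NF-YB, NF-YC and RAV types, 33 of 101 genes (32.7%) were higher in young fruit and 1 (0.99%) in flower. The shares of all genes as deposited were 23.4% and 10.4%. After scaling the counts were 19 and 3 of 101, where all genes stood at 14.0% and 14.1%. B3 proteins include the Arabidopsis regulators of seed maturation, and 21 of 68 were higher in young fruit and 1 in flower, or 13 and 1 after scaling. Dlo_018721.1 had 0.95 FPKM in flower and 18.2 FPKM in young fruit, its highest level, a difference of 3.30. The 1 on the flower side, Dlo_009627.1, had 57.6 FPKM in flower, 84.8 FPKM in flower bud and 3.47 FPKM in young fruit. Of the B3 genes, 34 were at 1 FPKM or more in either tissue, and the other 34 were below it in both. NF-Y proteins bind CCAAT boxes as a trimer, and their B subunits include the Arabidopsis embryo regulator LEC1. Of 7 NF-YA genes 4 were higher in young fruit (1 after scaling) and of 15 NF-YB genes 5 (2 after scaling, with 2 in flower). Dlo_003858.1, an NF-YB gene, had 0.43 FPKM in flower and 10.1 FPKM in young fruit, but 16.9 FPKM in flower bud and 0.79 FPKM in seed. Dlo_027557.2, an NF-YA gene, had 3.23 and 14.3 FPKM and 73.4 FPKM in root, and the RAV gene Dlo_001192.1 had 2.57 and 11.0 FPKM and 30.3 FPKM in seed. The last 3 genes peaked in 3 different tissues.

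The types that answer hormones gave shares near those of all transcription factors as deposited (24.3% and 14.1%). Over ARF, ARR-B, BES1, EIL, Tify and GRAS genes, 23 of 102 (22.5%) were higher in young fruit and 15 (14.7%) in flower. The shares of all genes were 23.4% and 10.4%. After scaling the counts were 15 and 21, so the excess turned, as it did over all transcription factors (246 and 286). ARF proteins carry the auxin response, and Dlo_014083.1 had 21.1 FPKM in flower and 115.1 FPKM in young fruit, its highest level, while Dlo_029636.1 had 110.6 and 35.4 FPKM. In all, 5 of 17 ARF genes were higher in young fruit and 2 in flower, or 4 and 3 after scaling. GRAS proteins include the DELLA repressors of gibberellin signalling, and 12 of 51 were higher in young fruit and 9 in flower, or 9 and 12 after scaling. Dlo_020743.1 had 919.2 FPKM in flower, its highest level, and 74.9 FPKM in young fruit, and Dlo_019465.1 had 0.62 and 22.6 FPKM. BES1 proteins act in brassinosteroid signalling, and 3 of 7 were higher in flower and 1 in young fruit under either scaling, with Dlo_031178.1 at 151.1 and 34.9 FPKM and Dlo_025626.1 at 18.6 and 55.2 FPKM. Of 10 ARR-B genes, the response regulators of cytokinin, Dlo_025009.1 had 128.8 FPKM in flower and 24.7 FPKM in young fruit and Dlo_005845.1 had 2.48 and 10.1 FPKM. Tify genes, the family of the jasmonate repressors, were higher in young fruit in 3 of 13 cases and in none after scaling, with Dlo_006874.1 the furthest at 25.3 and 60.5 FPKM.

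The MYB and bHLH families, whose members steer pigments, cell shape, pollen and light responses, headed both ends of the ranking of transcription factors. Of 117 MYB genes, 32 (27.4%) were higher in young fruit and 18 (15.4%) in flower, or 25 and 21 after scaling. Both shares lay above the 23.4% and 10.4% of all genes as deposited. Dlo_016623.1 had 572.8 FPKM in flower, 40.1 FPKM in flower bud, 0.29 FPKM in pericarp and was listed at 0 in young fruit and the other 5 tissues. Dlo_001771.1 had 257.7 FPKM in flower and 1.53 FPKM in young fruit, and Dlo_022183.1 had 210.8 and 1.97 FPKM. The first of these was nearly confined to floral libraries, whereas Dlo_001771.1 had 71.9 FPKM in stem and Dlo_022183.1 had its highest level, 228.3 FPKM, there. On the other side, Dlo_005512.1 had 0.18 FPKM in flower, 39.2 FPKM in young fruit and 60.0 FPKM in root. In the MYB-related type, 14 of 59 genes (23.7%) were higher in young fruit and 6 (10.2%) in flower, near the shares of all genes. After scaling they were 6 and 10, so that count turned. Dlo_002383.1 had 0.25 FPKM in flower and 65.9 FPKM in young fruit, with leaf next at 12 FPKM.

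Among 106 bHLH genes, 27 (25.5%) were higher in young fruit and 20 (18.9%) in flower, or 23 and 24 after scaling. Beside 23.4% and 10.4% of all genes as deposited, the young fruit share was near and the flower share above. Dlo_008220.2 was listed at 0 in flower and had 109.2 FPKM in young fruit, with 5.88 FPKM in pericarp and at most 2.25 FPKM elsewhere. Dlo_008219.1 was also listed at 0 in flower and had 42.8 FPKM in young fruit and at most 0.99 FPKM elsewhere. Their numbers stand next to each other in the annotation, and 2 further bHLH genes of that run, chosen after their values were seen, had the same pattern. These were Dlo_008217.1, with 31.95 FPKM, and Dlo_008221.1, with 27.7 FPKM in young fruit, both listed at 0 in flower and flower bud. Whether reads were shared between these 4 genes was not tested. Dlo_000515.1 had 1.11 FPKM in flower, 190.9 FPKM in young fruit and 84.2 FPKM in root, a difference of 6.51. Dlo_010846.1 had 13.6 FPKM in flower and 620.1 FPKM in young fruit, with 37.7 FPKM in leaf as its next level, a difference of 5.41. All 4 of the bHLH genes named by rule on this side were highest in young fruit. Dlo_009037.1 was the furthest on the flower side, with 23.4 and 0.2 FPKM.

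**Figure D4:**
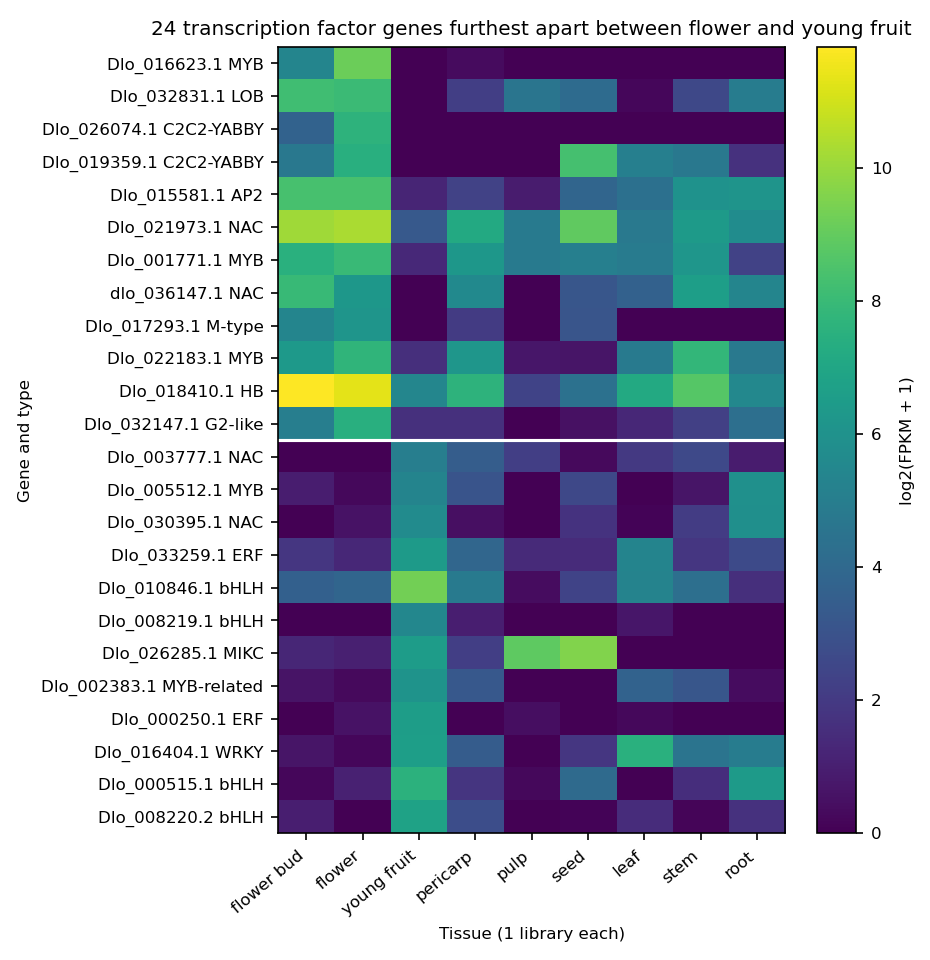
Levels of the 24 transcription factor genes furthest apart between flower and young fruit in all 9 tissues, as log2(FPKM + 1) in colour, 12 higher in flower above the white line and 12 higher in young fruit below it. Most genes of the upper block are also high in flower bud, whereas in the lower block 8 of 12 have their highest level in young fruit and the others in leaf, root or seed. Each cell is 1 library.

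The types best known from stress and defence, when pooled, had near even counts after scaling. Over WRKY, ERF, NAC, HSF and CAMTA genes, 87 of 299 (29.1%) were higher in young fruit and 52 (17.4%) in flower. The shares of all genes as deposited were 23.4% and 10.4%. After scaling the counts were 60 and 68 of 299, both larger shares than the 14.0% and 14.1% of all genes. The types differed, with NAC at 23 and 16, ERF at 26 and 28, WRKY at 7 and 17 and HSF at 3 and 7. NAC genes act in organ boundaries, walls and senescence, and 30 of 103 were higher in young fruit and 13 in flower, or 23 and 16 after scaling. Dlo_021973.1 had 1264 FPKM in flower, 1131 FPKM in flower bud and 8.81 FPKM in young fruit, a difference of -7.01. The NAC gene dlo_036147.1, whose values 1 more identifier shared, had 74.2 FPKM in flower, 247.9 FPKM in flower bud and was listed at 0 in young fruit. On the young fruit side, Dlo_030395.1 had 0.5 and 51.4 FPKM with 58.8 FPKM in root. Dlo_003777.1 was listed at 0 in flower and had 32.7 FPKM in young fruit, its highest level. Of these 4 genes, the flower pair was high in flower bud but not there alone, since Dlo_021973.1 had 485.5 FPKM in seed and dlo_036147.1 had 97.3 FPKM in stem. The young fruit pair was listed at 0 in flower bud.

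ERF proteins carry ethylene and drought responses. Of 114, 37 (32.5%) were higher in young fruit and 20 (17.5%) in flower, beside 23.4% and 10.4% of all genes, or 26 and 28 after scaling. Dlo_000250.1 had 0.51 FPKM in flower, 94.7 FPKM in young fruit and at most 0.34 FPKM in the other 7 tissues. It was nearly confined to young fruit, as the YABBY gene Dlo_026074.1 and the MYB gene Dlo_016623.1 were to flower and bud. Dlo_033259.1 had 1.46 and 86.7 FPKM with 39.3 FPKM in leaf, and Dlo_005429.1 had 98.04 FPKM in flower and 1.79 FPKM in young fruit with 137.7 FPKM in stem. WRKY proteins are regulators of defence and senescence. Of 57, 14 (24.6%) were higher in young fruit and 12 (21.1%) in flower, or 7 and 17 after scaling. Their flower share, not their young fruit share, lay far from that of all genes. Dlo_016404.1 had 0.14 FPKM in flower, 96.8 FPKM in young fruit and 178.3 FPKM in leaf, a difference of 6.42, and Dlo_004435.1 had 50.1 FPKM in flower and 0.57 FPKM in young fruit. Of 20 heat shock factors (HSF), 7 (35.0%) were higher in flower and 5 (25.0%) in young fruit, or 7 and 3 after scaling. The furthest on the flower side was Dlo_019503.1 at 75.6 and 7.97 FPKM.

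Over the C2H2, C3H, C2C2-Dof and related zinc finger types, 53 of 188 genes (28.2%) were higher in young fruit and 18 (9.57%) in flower, near the 23.4% and 10.4% of all genes, and 35 and 29 after scaling. Of 23 C2C2-Dof genes, 11 were higher in young fruit and 4 in flower, and 9 and 5 after scaling, so the type kept its direction. Dof proteins act in vascular tissue and seed storage, and Dlo_000175.1 had 0.56 FPKM in flower, 30.1 FPKM in young fruit and 51.5 FPKM in root. Of 49 C3H genes, many of which bind RNA, 12 were higher in young fruit and 1 in flower, but 5 and 4 after scaling. Of 88 C2H2 genes, 23 were higher in young fruit and 10 in flower, or 16 and 15 after scaling. The C2H2 gene Dlo_031488.1 had 54.0 FPKM in flower and 0.28 FPKM in young fruit, and Dlo_029408.1 had 3.12 and 62.4 FPKM. Plant PLATZ proteins bind AT-rich DNA, and 4 of 10 were higher in flower and 1 in young fruit, or 4 and 0 after scaling, with Dlo_017516.1 at 35.3 and 5.23 FPKM. The G2-like gene Dlo_032147.1 had 174.1 FPKM in flower, 32.3 FPKM in flower bud and 2.15 FPKM in young fruit, although its type as a whole had 9 of 31 genes higher in young fruit and 4 in flower (5 and 4 after scaling).

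Gene functions outside transcription factors come from the study's annotation of genes that carry sequence variants between longan cultivars, which covers 796 genes of the table and was not chosen by expression. Of these, 225 (28.3%) were higher in young fruit and 61 (7.66%) in flower, and 140 and 94 after scaling. Of the annotated genes, 188, not all of them in the table, were put in 12 functional lists of 7 to 61 genes in the table. Most annotated genes were thus in no list, and some stood in more than 1. By median over all its genes, the list furthest towards young fruit held resistance genes of the NBS-LRR kind, intracellular receptors for pathogen molecules. Of 24, 15 (62.5%) were higher in young fruit and 0 in flower, beside 23.4% and 10.4% of all genes. After scaling the counts were 12 and 0, where all genes stood at 14.0% and 14.1%. Their median difference was 1.40, beside 0.13 for all genes and 0.36 for the annotated genes. Among genes at 1 FPKM or more in either tissue, the median was 1.69 for 16 resistance genes. At that level it was 1.80 for 9 receptor kinases, the list described next, and 0.56 for all genes. Of the 24, 8 were at 5 FPKM or more in either tissue. The study counts many more resistance genes of this kind in the genome, so these 24 are only a part. Dlo_033521.2 had 1.53 FPKM in flower and 21.4 FPKM in young fruit, Dlo_026950.1 had 2.67 and 30.2 FPKM, and Dlo_004198.2 had 1.92 and 13.0 FPKM. All 3 had their highest level in young fruit, as did Dlo_014153.1 with 1.27 and 7.5 FPKM. The other resistance genes were at 5.36 FPKM or less in flower and 17.4 FPKM or less in young fruit.

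Receptor kinases with leucine-rich repeats sense peptides and brassinosteroids at the cell surface. Of 16 genes, 6 (37.5%) were higher in young fruit and 1 (6.25%) in flower, or 5 and 1 after scaling. Dlo_005235.1, annotated as HSL1, a relative of the Arabidopsis abscission receptor HAESA, had 0.1 FPKM in flower, 17.1 FPKM in young fruit and 55.5 FPKM in pulp. Dlo_020505.1, annotated as BAK1, a co-receptor, was the most abundant, with 65.6 FPKM in flower and 235.7 FPKM in young fruit. Over all 61 protein kinases, 15 (24.6%) were higher in young fruit and 4 (6.56%) in flower (12 and 6 after scaling), with a median of 0.18. Beside 23.4% and 10.4% of all genes as deposited, the young fruit share of the 61 kinases was near that of all genes. The kinases on the flower side included Dlo_000535.1, a lectin domain kinase with 57.3 FPKM in flower, 1.12 FPKM in young fruit and 103.4 FPKM in leaf. Dlo_002210.1 had 13.2 FPKM in flower and 14.6 FPKM in flower bud and was listed at 0 in the other 7 tissues. The kinases thus ranged from bud and flower genes to genes of fruit and root.

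**Figure D5:**
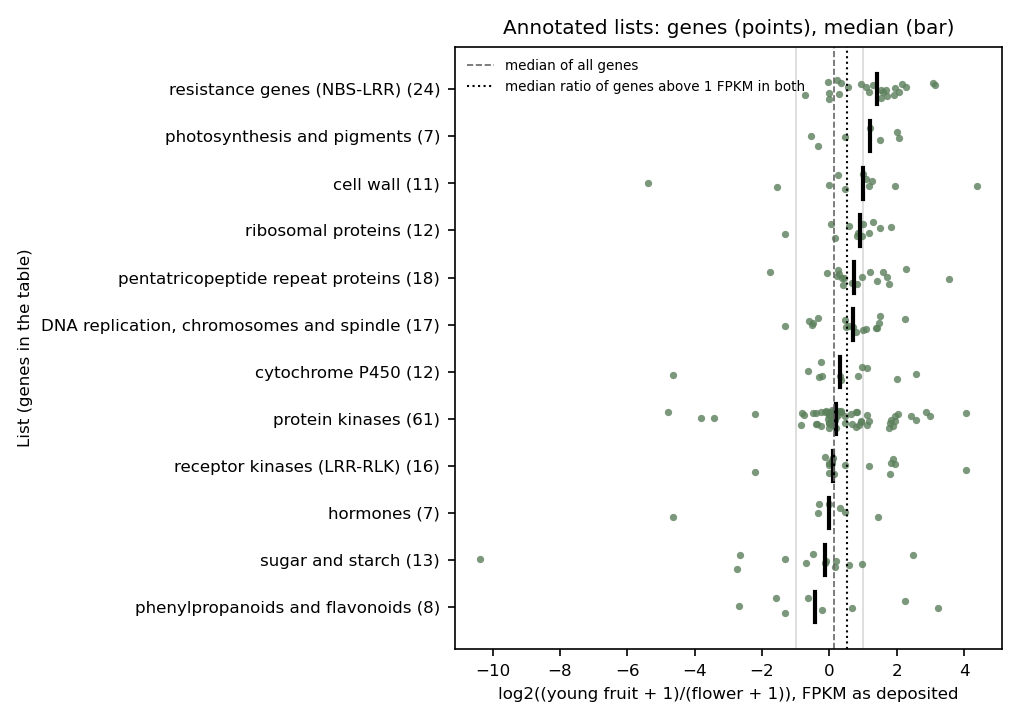
Difference between young fruit and flower of each gene (points) in the 12 annotated lists, as log2((young fruit + 1)/(flower + 1)), with the list median as a black bar and grey lines at 2-fold. The dashed line is the median of all genes (0.13) and the dotted line the median ratio of genes above 1 FPKM in both (0.53). The median of the resistance genes (1.40) lies furthest right and that of the phenylpropanoid genes (-0.43) furthest left. Among genes at 1 FPKM or more in either tissue, receptor kinases (1.80) and hormone genes (-0.31) had the outermost medians.

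Photosynthesis and pigment genes, cell wall genes and genes of division had more members higher in young fruit than in flower as deposited. The same held for all genes (23.4% and 10.4%) and for the 796 annotated genes (28.3% and 7.66%). The young fruit shares of these lists were 57.1%, 45.5% and 41.2%, in that order. Most of their genes (7 of 7, 10 of 11 and 15 of 17) were at 1 FPKM or more in either tissue. Over all genes at that level, the shares were 34.7% and 15.4% as deposited and 20.7% and 20.9% after scaling. After scaling all genes stood at 14.0% and 14.1%, beside the list counts given below. Of 7 photosynthesis and pigment genes 4 were higher in young fruit and 0 in flower (3 and 0 after scaling), with a median of 1.19. Besides PsbP, these were the chlorophyll b reductase gene Dlo_030843.1 with 3.22 and 15.9 FPKM, the carotenoid isomerase gene Dlo_000046.1 with 4.49 and 14.5 FPKM and the protoporphyrinogen oxidase gene Dlo_023154.3 with 8.48 and 20.7 FPKM, the last of them within 2-fold after scaling. Of 17 genes of DNA replication, chromosomes and spindle, 7 were higher in young fruit and 1 in flower (3 and 1 after scaling). The pair furthest apart were both tubulins, the subunits of microtubules. The beta-tubulin gene Dlo_011479.1 had 100.5 FPKM in flower and 477.9 FPKM in young fruit, and the alpha-tubulin gene Dlo_030600.1 had 146.6 and 58.2 FPKM. Genes within 2-fold but lower in young fruit, chosen after their values were seen, were timeless (Dlo_004729.1) with 1.96 and 0.93 FPKM, SMC6 (Dlo_023392.1) with 7.52 and 5.74 FPKM, and the condensin subunit genes Dlo_005115.1 with 0.95 and 0.38 FPKM and Dlo_004416.1 with 0.42 FPKM and 0. Members of this list thus lay on both sides. Of 12 ribosomal protein genes, 4 were higher in young fruit and 1 in flower, and 1 and 1 after scaling.

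Cell wall genes, which loosen or build the wall as cells grow, contained opposite members of 1 enzyme class. Of 11 genes, 5 were higher in young fruit and 2 in flower, and 2 and 2 after scaling. Pectinesterases remove methyl groups from pectin, and Dlo_006482.1 had 40.7 FPKM in flower, 12.4 FPKM in flower bud and was listed at 0 in the other 7 tissues. The pectinesterase gene Dlo_021909.1 had 35.6 FPKM in flower, 139.6 FPKM in young fruit and 152.3 FPKM in stem. The cellulose synthase gene Dlo_033645.1 had 1.01 FPKM in flower and 40.9 FPKM in young fruit, its highest level, a difference of 4.38. The expansin gene Dlo_032029.1, whose product loosens walls, had 14.8 and 34.7 FPKM, and the polygalacturonase gene Dlo_019907.1 4.51 and 12.1 FPKM, both within 2-fold after scaling. The xyloglucan endotransglucosylase gene Dlo_003710.1 was on the flower side, with 17.1 and 5.1 FPKM.

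Of 13 sugar and starch genes, 4 (30.8%) were higher in flower, 1 (7.69%) was higher in young fruit and 8 were within 2-fold. All genes stood at 10.4% and 23.4%, in that order. The median of the list was -0.12, and 5 and 1 were set apart after scaling. The sugar transporter gene Dlo_020112.1 had 2069 FPKM in flower, 54.9 FPKM in flower bud, 0.55 FPKM in young fruit and at most 2.81 FPKM elsewhere, a difference of -10.38. A further sugar transporter, Dlo_020216.1, had 332.8 FPKM in flower and 48.5 FPKM in young fruit, but 330.5 FPKM in leaf. The trehalose-6-phosphate synthase gene Dlo_014494.1, of the family that makes the sugar signal trehalose-6-phosphate, had 156.3 and 24.1 FPKM, and the enolase gene Dlo_006190.2 had 21.9 and 8.23 FPKM. The 1 gene on the young fruit side was the glycolytic triosephosphate isomerase gene Dlo_009789.1, with 24.7 and 141.8 FPKM. Only the first transporter was nearly confined to flower.

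Phenylpropanoid and flavonoid genes split within an enzyme class as well. Of 8, 3 (37.5%) were higher in flower and 2 (25.0%) in young fruit under either scaling, with a median of -0.43. All genes stood at 10.4% and 23.4% as deposited. The study counts many more genes of this pathway, and several of its enzyme families are absent here, so these 8 are only a part. Dihydroflavonol reductase makes the precursors of anthocyanins and tannins, and Dlo_025848.1 had 80.9 FPKM in flower, 11.8 FPKM in young fruit and 540.7 FPKM in root. The other dihydroflavonol reductase gene, Dlo_024800.1, had 2.02 FPKM in flower and 26.9 FPKM in young fruit, and at most 1.97 FPKM elsewhere. These 2 genes of 1 annotation thus had opposite directions. The DAHP synthase gene Dlo_025034.1, the entry to aromatic amino acids, had 127.3 FPKM in flower and 607.1 FPKM in young fruit, its highest level. The cinnamate hydroxylase gene Dlo_002085.1, chosen after its values were seen, stayed within 2-fold at 280.5 and 242.4 FPKM.

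Few hormone genes carried an annotation. Of 7 in the table, 1 (14.3%) was higher in each tissue as deposited, beside 23.4% of all genes in young fruit and 10.4% in flower. After scaling, 0 were higher in young fruit and 1 in flower. The abscisic acid 8'-hydroxylase gene Dlo_031754.1, whose product breaks abscisic acid down, had 44.9 FPKM in flower, its highest level, and 0.82 FPKM in young fruit, a difference of -4.66. The gibberellin receptor gene GID1 (Dlo_032487.1) had 3.7 FPKM in flower, 11.9 FPKM in young fruit and 21.5 FPKM in flower bud, and its difference of 1.45 became 0.97 after scaling, short of 2-fold. Of 12 cytochrome P450 genes, 3 (25.0%) were higher in young fruit and 1 (8.33%) in flower (2 and 1 after scaling). These shares were near those of all genes, and the 1 flower gene was the same hydroxylase gene. Pentatricopeptide repeat proteins process RNA in plastids and mitochondria. Of 18 such genes, 7 (38.9%) were higher in young fruit and 1 (5.56%) in flower (6 and 1 after scaling). Dlo_000594.2 had 1.66 and 30.3 FPKM.

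Among genes with neither a type nor an annotation, the 2 furthest on the flower side were Dlo_010393.1, with 4780 FPKM in flower, 441.7 FPKM in flower bud and 0.4 FPKM in young fruit, and Dlo_020054.1, with 2079 FPKM in flower and 0 in young fruit. The 2 furthest the other way were dlo_034269.1, with 0.1 FPKM in flower and 150.3 FPKM in young fruit, and dlo_035551.1, listed at 0 in flower with 112.1 FPKM in young fruit, whose values 1 more identifier shared. Both flower genes were next highest in flower bud, and dlo_034269.1 had 83.9 FPKM in flower bud but 0.19 FPKM in both leaf and stem.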

How the data were processed

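Poly(A) RNA of 9 longan tissues (cultivar “SJM”) was sequenced on an Illumina HiSeq 2000, 1 library a tissue. The authors removed adaptor, low-quality and organelle or ribosomal reads, aligned the rest to the longan draft genome of the cultivar “HHZ” with TopHat (TopHat2 2.0.10 in the submitters' processing notes), and deposited FPKM values for 30014 genes. The program that computed the FPKM values is not given in the sources used here. Reads of “SJM” that differ from the “HHZ” genome may be lost at alignment, which can lower a gene in every tissue.

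Columns were assigned to tissues by name. Differences were computed as log2((young fruit FPKM + 1)/(flower FPKM + 1)), and a gene was counted at 2-fold or more, without a test, since each tissue has 1 library. The single-library caller of the study (EBSeq) was not repeated. Transcription factor types and functional annotations came from the tables of the study. Members and lists were chosen with earlier results of these data known. Named genes were, among transcription factors at 5 FPKM or more, the 12 furthest apart each way and the furthest each way of each type described, all genes of the types LFY, NOZZLE, C2C2-YABBY, E2F-DP and GRF, up to 4 genes each way of each annotated list, and 2 each way without annotation. Other genes are said to be chosen after their values were seen. The alternatives were pseudocounts of 0.1 and 5, filters at 1 and 5 FPKM, 3 rescalings, a 4-fold limit, and identical identifiers counted once, the last added after seeing the data. The calculation was tested on simulated data. Python 3.11.15, pandas 2.3.3, NumPy 2.4.6 and matplotlib 3.10.9 were used.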

Additional observations from a re-analysis of the deposited data

How the results depend on the processing

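Against 7036 genes higher in young fruit, 3119 higher in flower and a young fruit share of 69.3%, the share moved furthest with the scaling between the libraries and the count for young fruit with the 4-fold limit. With median-ratio scaling, 4188 genes and 246 transcription factors were higher in young fruit, and the share was 49.7%. With a pseudocount of 5, 3811 genes were higher in young fruit and the share was 63.8%, and with a pseudocount of 0.1 there were 9775 and 4663 genes and the share was 67.7%. Rescaling to the same total over all genes gave 68.1%. At a 4-fold limit, 2231 genes were higher in young fruit and 1601 in flower (58.2%), and 158 and 123 transcription factors. Counting identical identifiers once, an alternative chosen after seeing the data, gave 6910 and 3049 genes. Of the 149 named genes at 2-fold or more, 133 remained there with median-ratio scaling and 135 with a pseudocount of 5, all 149 under the other 3 alternatives run on them, and 0 changed sign. No paired analysis was possible because flower and young fruit are 1 library each, and for the same reason no library could be left out. FPKM without gene lengths or counts gives no counting error, so small differences at low levels cannot be judged. The labels give neither the stage of the young fruit nor the number of trees.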

Other observations

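Outside the lists described above, the annotated genes held several large differences, all chosen here after their values were seen. A multicopper oxidase gene annotated as ascorbate oxidase (Dlo_021756.1), an enzyme of the cell wall space, had the highest level of any gene in the flower library, 8311 FPKM, with 6911 FPKM in flower bud, 234.6 FPKM in stem and 1.58 FPKM in young fruit. A papain-type cysteine protease gene (Dlo_017782.1) had 266.4 FPKM in flower and 2.92 FPKM in young fruit, with 1167 FPKM in flower bud and 1215 FPKM in seed. A copper amine oxidase gene (Dlo_018642.1) had 184.3 and 8.74 FPKM, and 481.8 FPKM in pulp. Each of these 3 genes was lower in young fruit than in flower and flower bud.

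In the other direction, the gene for myo-inositol-1-phosphate synthase (Dlo_005273.1), which makes inositol from glucose-6-phosphate, had 125.2 FPKM in flower and 940.4 FPKM in young fruit, its highest level. An ABC transporter gene of subfamily G (Dlo_003793.1) had 1.82 FPKM in flower, 101.7 FPKM in young fruit and 50.5 FPKM in leaf, and was listed at 0 in pulp, seed and root. A beta-glucosidase gene (Dlo_009079.1) had 0.08 FPKM in flower, 13.9 FPKM in young fruit and 159.3 FPKM in pulp. The first 2 were highest in young fruit and the third in pulp.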
